A study of Pavo cristatus and Gallus gallus and Meleagris gallopavo with 54 samples.

Results

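Fibroblasts grown out of 3 duck embryos were each expanded in 2 media, DMEM high glucose and DMEM/F12, and the start sites of their transcripts were counted by CAGE, cap analysis of gene expression, which reads the 5′ ends of capped RNA. These 6 libraries, out of 40 CAGE libraries in the series (54 samples in all), hold every duck (Anas platyrhynchos) sample for which the media can be compared. The embryos were at stage HH36. Each culture came from the trunk left after head, neck, limbs, skin, fat and internal organs had been cut away, was fed medium with 10% fetal bovine serum, and was harvested at passage 5, so the cells are a mixed primary culture and not a clone. Cells of all 3 embryos were first suspended in the DMEM/serum medium, then seeded in that medium (high glucose below) or in DMEM/F12 with the same serum share (F12 below). Embryo 1 was female and embryos 2 and 3 were male, so that sex and embryo cannot be told apart here. All 8619 duck peaks were tested, with each high-glucose library set against the F12 library of the same embryo.

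DMEM/F12 is a blend of DMEM with the Ham's F12 formula. F12 was designed for growth with little serum and adds amino acids that DMEM lacks, hypoxanthine and thymidine as ready-made nucleic acid precursors, linoleic acid and lipoic acid, the polyamine putrescine, and trace zinc, copper and iron, while high-glucose DMEM carries more glucose. The lysosome is the acidic organelle in which cells break down proteins, lipids and sugars taken up from outside or delivered by autophagy, and its proteases, the cathepsins, are abundant in fibroblasts. Glycolysis is the chain of cytosolic enzymes that splits glucose into pyruvate. Fibroblast cultures on plastic also commonly contain cells with contractile genes of the smooth muscle type, and fibroblasts lay down collagens and other extracellular matrix.

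In duck, the list with the highest median in high glucose, cell type markers left aside, was the lysosomal one, led by the cathepsins CTSK, CTSL, CTSB and CTSZ and the lysosomal cholesterol carrier NPC2. The genes that stood lower in high glucose than in F12 included nearly the whole glycolytic chain, smooth muscle genes such as ACTG2 and MYH11, and the adjacent collagen IV genes COL4A5 and COL4A6. With 3 embryo pairs and 2 residual degrees of freedom, the limma test across all peaks called 1 peak at an adjusted p under 0.05, a peak that fell in high glucose. The share called was 0% for peaks higher in high glucose and 0.0116% for peaks lower in it. A further 4 peaks had an adjusted p under 0.1, which gives 5 in all, and 828 peaks (9.61%) had an unadjusted p under 0.05 in either direction. Accordingly, apart from the called peak, the values below are levels and differences seen in 3 embryos and not calls. In bulk cultures, fewer cells of a type and less RNA per cell cannot be told apart.

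Because the test called so little, peaks were also described by size: a mean difference of at least 1.5-fold, the same direction in all 3 embryos and a mean level of 10 TPM or more (TPM being the number of tags out of 1000000 tags of the library). On that description 95 peaks of 76 genes were higher in high glucose (1.1% of all peaks) and 55 peaks of 54 genes were lower (0.638%). Counting 1 strongest peak per gene, the shares were 0.869% and 0.623% of 7706 genes. The fold applies to the mean: 31 of the 95 higher and 16 of the 55 lower peaks were past 1.5-fold in each of the 3 embryos singly. In the plot of all peaks the bulk of the cloud lies close to 0, and the lower peaks reach a mean of 434 TPM while the higher ones reach 5189 TPM. That highest mean, of a LOC113841280 peak, rests on library C32 (embryo 1 in high glucose). The peak was at 17931 TPM in C32 and at 2151 to 3277 TPM in the other libraries.

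**Figure D1:**
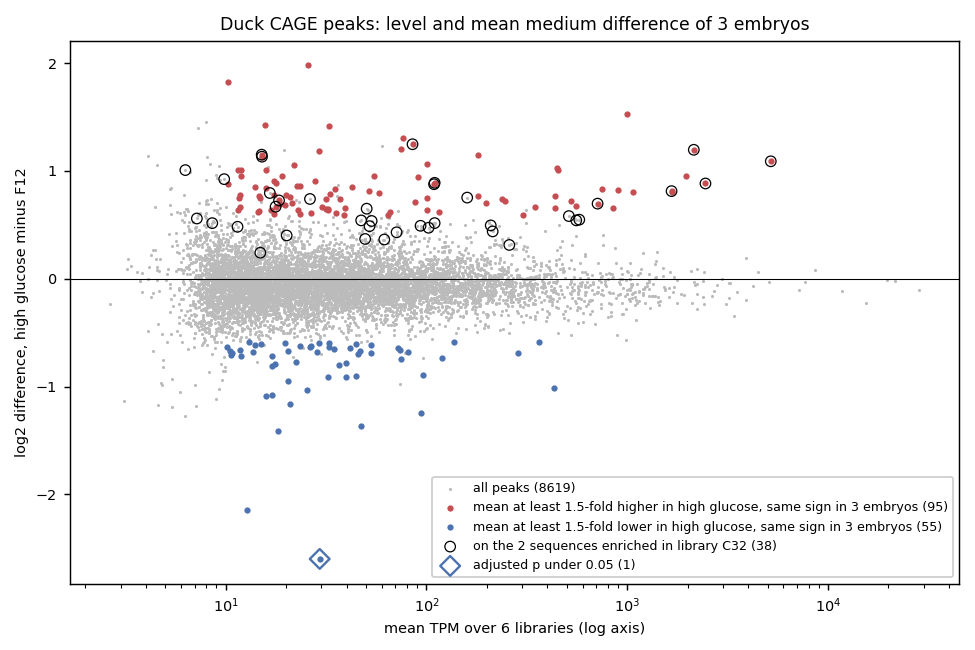
Each point is 1 of 8619 duck CAGE peaks, with its mean TPM over 6 libraries on the horizontal log axis and the mean log2 difference of 3 embryos, high glucose minus F12, on the vertical axis. The 95 red peaks had a mean difference of at least 1.5-fold towards high glucose with the same sign in all 3 embryos and a mean of at least 10 TPM, the 55 blue peaks the same towards F12, the diamond is the 1 peak with an adjusted p under 0.05, and circles mark the 38 peaks on the scaffold and the mitochondrial sequence that were high in library C32.

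Embryo and not medium was the main source of spread. The first principal component (54.8% of the variance) set embryo 1 apart from the other embryos, and the second (23.8%) set embryo 2 apart from embryo 3. The third (12.3%) separated the media, with the widest gap in embryo 1. Its scores in F12 and high glucose were 23.5 and -20.1 in embryo 1, 2.65 and -4.15 in embryo 2, and 3.09 and -4.97 in embryo 3. Depth ranged from 7006061 to 11102232 tags, with 84.8% to 88.2% of tags in peaks, and the shallowest library was embryo 1 in high glucose (C32). That library stood apart: 23 peaks of 4 LOC genes on scaffold NW_024010378.1 summed to 39669.8 TPM in it, against 5856 to 8246 TPM in the other 5 libraries, and 15 peaks on the mitochondrial sequence summed to 7749.9 TPM against 2336 to 3098 TPM. Of these 38 peaks, 12 were among the 95 higher ones, as were 6 of the 9 peaks of LOC119716402 and LOC119716423, whose levels ran close to those of mitochondrial ND1, so that tags shared between them are uncertain. Taken more widely and after seeing the values, 110 peaks of 58 genes were at least 2-fold higher in high glucose in embryo 1 and stood 0.8 log2 units above the other embryos' differences, and 28 of the 95 higher peaks were among them. With the scaffold and the mitochondrial sequence removed and the rest rescaled, 87 peaks were higher, 49 were lower and 1 was called. The median log2 difference over all peaks was -0.17 in embryo 1, 0.003 in embryo 2 and 0.03 in embryo 3 (SD over peaks 0.45, 0.29 and 0.31). TMM scaling, which sets library scales by the bulk of the peaks, brought these medians to between 0 and 0.01, and 94 of the 95 higher and 41 of the 55 lower peaks met the description in that scaling also.

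The cultures carried the fibroblast markers. Of 15 fibroblast markers 10 had a peak, and their levels summed to between 73106 and 90137 TPM in F12 and between 69745 and 82002 TPM in high glucose. COL1A1, the main chain of collagen I, stood at 35251, 27769 and 25320.1 TPM in F12. In high glucose it stood at 30906, 23817 and 27263 TPM. Its log2 difference was -0.10 ± 0.12 (here and below the SE moderated by limma, n = 3 pairs). VIM, TWIST1, TWIST2, PRRX1 and TCF21 had no duck peak, while in RNA-seq of 2 high-glucose cultures (the female and 1 male) 13 of the 14 fibroblast markers listed were at 1 FPKM or above in both. No marker of blood and macrophages or of glia and melanocytes had a CAGE peak, and in RNA-seq the blood and macrophage list summed to 4.33 and 4.32 FPKM and the glia list to 0.175 and 0.292 FPKM, against 18444 and 16715 FPKM for the fibroblast list. The smooth muscle list summed to 1897 and 1873 FPKM, cartilage to 516 and 433 FPKM and epithelium to 358 and 313 FPKM. A single gene gave 450 and 289 FPKM of the cartilage sum, and another gave 347 and 302 FPKM of the epithelium sum. At 1 FPKM or above in both libraries were 7 of 7 smooth muscle, 5 of 12 cartilage and 2 of 7 epithelium genes. The remaining markers with a peak were 7 of smooth muscle, 4 of neurons, 3 each of cartilage, epithelium and the kidney and gonad mesoderm, and 1 each of skeletal muscle (DES) and endothelium (CLDN5). The epithelial marker EPCAM was at 37.8, 32.1 and 34.4 TPM in F12 and at 19.1, 18.9 and 31.7 TPM in high glucose. Another of the 3 epithelial markers was higher in high glucose in all 3 embryos. Their summed level was 349 to 473 TPM in F12 and 337 to 578 TPM in high glucose. The cartilage gene COL9A1 was lower in high glucose in embryos 1 and 2 and higher in embryo 3.

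The called peak belonged to LOC113840668, a gene that the files give no name, and it was picked out here after its values were seen. It lies at NW_024010191.1:24792-24896 on the plus strand of the duck assembly ZJU1.0, 41 bases from the annotated gene start. In F12 its level was 62.5, 45.2 and 46.0 TPM in embryos 1, 2 and 3, and in high glucose it was 7.71, 6.66 and 8.30 TPM. The 3 high-glucose libraries were thus close to each other and well below every F12 library, and the peak fell 6.06-fold (log2 difference -2.60 ± 0.15, SE, adjusted p = 0.042, limma). The call was lost without the mean-variance trend (adjusted p = 0.0635), without embryo 2 (adjusted p = 0.170) and without embryo 3 (adjusted p = 0.708), and over all settings tried the adjusted p ranged from 0.00861, without the pairing by embryo, to 0.708. The opposite pattern was seen for LOC119715322, also unnamed and also chosen after its values were seen, which was at 9.92, 8.47 and 11.3 TPM in F12 and at 40.1, 43.3 and 41.6 TPM in high glucose (log2 difference 1.98 ± 0.14, adjusted p = 0.0654).

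Lysosomal genes were, of the lists other than cell type markers, the one with the largest share higher in high glucose. Of 44 genes listed for lysosome and autophagy 36 had a peak, and of these 23 were higher in high glucose in all 3 embryos and none was lower in all 3, where 11.8% of all genes were higher and 21.9% lower in all 3 embryos. None of the 36 was called. The list's median log2 difference was 0.25, beside -0.06 over all genes. Its summed level ran from 6264 to 6844 TPM in F12 and from 10118 to 10566 TPM in high glucose, so that these sums did not overlap. Much of the rise of the sum came from the strongest peaks of CTSL, NPC2 and CTSB. Their means were 1346, 501 and 652 TPM in F12 and 2587, 1491 and 1155 TPM in high glucose. With TMM scaling 25 were higher in all 3 embryos (17% of all genes) and none was lower (16.8%), and in embryos 2 and 3 alone, without the shallow library, 28 were higher in both (32.6% of all genes) and 2 lower in both (26.1%).

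The cathepsins and NPC2 led the list. NPC2, the soluble protein that carries cholesterol out of the lysosome together with NPC1, was at 559, 439 and 504 TPM in F12 and at 2068, 1205 and 1198 TPM in high glucose (log2 difference 1.53 ± 0.14, adjusted p = 0.0968). Its high-glucose levels were all above its F12 levels, with embryo 1 the highest of the 3. CTSK, a cysteine protease able to cut collagen, was at 52.4, 73.0 and 69.7 TPM in F12 and at 117, 158 and 135 TPM in high glucose, again without overlap (log2 difference 1.06 ± 0.09, adjusted p = 0.0968). CTSL, a further cysteine protease, stood at 1213, 1210.03 and 1616 TPM in F12 and at 2649, 2300.5 and 2812 TPM in high glucose (log2 difference 0.95 ± 0.10, adjusted p = 0.104). For CTSL the difference was seen at each of its 3 peaks, with folds of 1.93 at the main start site and 1.59 and 2.19 at the weaker ones, which share the same libraries and are not independent. Without embryo 1, NPC2 (log2 difference 1.35) and CTSK (1.02) each reached an adjusted p of 0.0401, the lower end of a range that went up to 0.708 without embryo 3, and 10 peaks in all were called, 6 higher and 4 lower.

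The other lysosomal members differed less. CTSB was at 743, 631 and 582 TPM in F12 and at 1286, 1046 and 1132 TPM in high glucose (log2 difference 0.83 ± 0.09), read from a peak that the files place at -2526 bases from the gene start. CTSZ was at 312, 381 and 329 TPM against 502, 617 and 494 TPM (0.65 ± 0.08). Neither gene overlapped between the media. The aspartic protease CTSD (log2 difference 0.59 ± 0.09) and the lysosomal membrane glycoprotein LAMP1 (0.62 ± 0.09) completed the 7 members at least 1.5-fold higher on the mean of 3 embryos. Smaller differences in the same direction were seen for CTSC, LGMN, ASAH1 (acid ceramidase), HEXA, LIPA (lysosomal acid lipase), GRN and the autophagy receptor SQSTM1, from 0.27 to 0.44 on the log2 scale. TFEB and MITF, transcription factors of lysosomal genes, stood at log2 differences of 0.01 ± 0.13 and 0.11 ± 0.14, with mixed signs, as did the proton pump subunits ATP6V0D1 and ATP6V1H (ATP6V1A was higher in all 3 embryos). CTSS, LAPTM4A and SCARB2 were lower in 2 of 3 embryos.

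**Figure D2:**
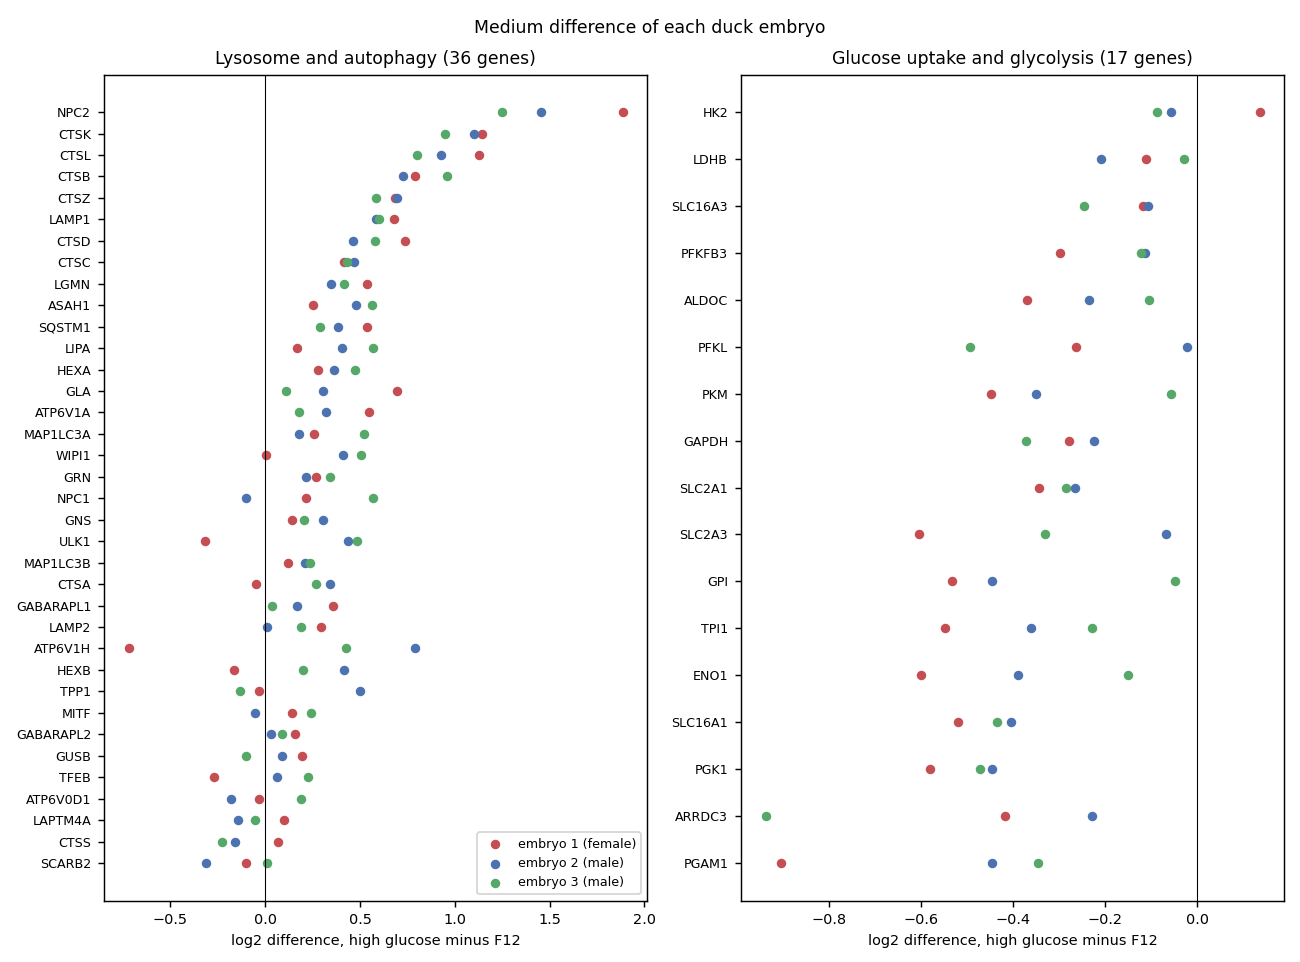
Each point is the log2 difference, high glucose minus F12, of 1 gene in 1 duck embryo, for the 36 measured genes of lysosome and autophagy (left) and the 17 of glucose uptake and glycolysis (right). On the left 23 genes have all 3 points above 0 and none has all 3 below, while on the right 16 of 17 genes have all 3 points below 0, HK2 being the exception.

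The glycolytic genes lay on the other side. Of 33 genes listed for glucose uptake, glycolysis and glucose sensing 17 had a peak, and 16 of them were lower in high glucose in all 3 embryos (21.9% of all genes) while none was higher in all 3. None was called and none was 1.5-fold lower on the mean: the median log2 difference was -0.30. Summed over the list, the level was 7189.8 to 8689 TPM in F12 and 5633 to 6942 TPM in high glucose. In TMM scaling 14 of the 17 were lower in all 3 embryos (16.8% of all genes), and in embryos 2 and 3 alone all 17 were lower in both (26.1% of all genes).

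PGK1, phosphoglycerate kinase, was the member with the smallest p, at 511, 495 and 582 TPM in F12 and 342, 363 and 419 TPM in high glucose (log2 difference -0.50 ± 0.08, adjusted p = 0.189). PGAM1, phosphoglycerate mutase, was at 1456, 886 and 1198 TPM against 777, 649 and 942 TPM (-0.57 ± 0.13, adjusted p = 0.336). PGK1 did not overlap between the media, whereas for PGAM1 the highest level in high glucose, in embryo 3, was above the lowest in F12. ENO1, enolase, was at 1502, 1172 and 1101 TPM in F12 and at 990.1, 894 and 992 TPM in high glucose (-0.38 ± 0.11). PKM, the pyruvate kinase gene, was at 2619, 2312 and 2399 TPM against 1918, 1814 and 2306 TPM (-0.29 ± 0.10), and embryo 3 differed least. TPI1, GAPDH, GPI and ALDOC had log2 differences from -0.38 to -0.24. The glucose transporter genes SLC2A1 (-0.30 ± 0.11) and SLC2A3 (-0.33 ± 0.17) and the lactate transporter genes SLC16A1 (-0.45 ± 0.12) and SLC16A3 (-0.16 ± 0.10) were on the same side, as was ARRDC3, an arrestin-domain gene (-0.53 ± 0.15). HK2, hexokinase, was at 74.8, 49.6 and 67.3 TPM in F12 and 82.2, 47.6 and 63.3 TPM in high glucose and so hardly differed.

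HADH and APOA1 were also among the named genes of smallest p higher in high glucose. HADH, a mitochondrial enzyme of fatty acid β-oxidation, was at 277, 373 and 324 TPM in F12 and at 474, 608 and 569 TPM in high glucose (log2 difference 0.76 ± 0.08, adjusted p = 0.104). APOA1, the main protein of high-density lipoprotein, was at 559, 689.7 and 359 TPM in F12 and at 1128, 1108 and 630.1 TPM in high glucose (0.83 ± 0.09, adjusted p = 0.115). HADH did not overlap between the media; for APOA1 embryo 3 was low in each medium, and its high-glucose level lay within the F12 range of the other embryos. A second, weaker APOA1 peak, 1356 bases into the gene, had a log2 difference of 0.85 ± 0.30.

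CREG1, a secreted and lysosomal glycoprotein that the lysosome list does not hold, was at 183, 195 and 182 TPM in F12 and at 301, 322 and 302 TPM in high glucose (log2 difference 0.72 ± 0.08, adjusted p = 0.104), the tightest of these genes within each medium. CYGB, cytoglobin, was at 90.4, 72.5 and 73.0 TPM against 129, 119 and 119 TPM (0.64 ± 0.09). PPDPFL was a low gene, at 8.39, 12.2 and 3.75 TPM in F12 and 24.4, 33.9 and 11.9 TPM in high glucose (1.43 ± 0.13, adjusted p = 0.0968), and RARRES1, a gene induced by retinoic acid, was at 712, 914 and 355 TPM against 1197, 1412 and 532 TPM (0.65 ± 0.08). In PPDPFL and RARRES1 the embryos differed as much as the media, so that the ranges overlapped although each embryo was higher in high glucose.

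**Figure D3:**
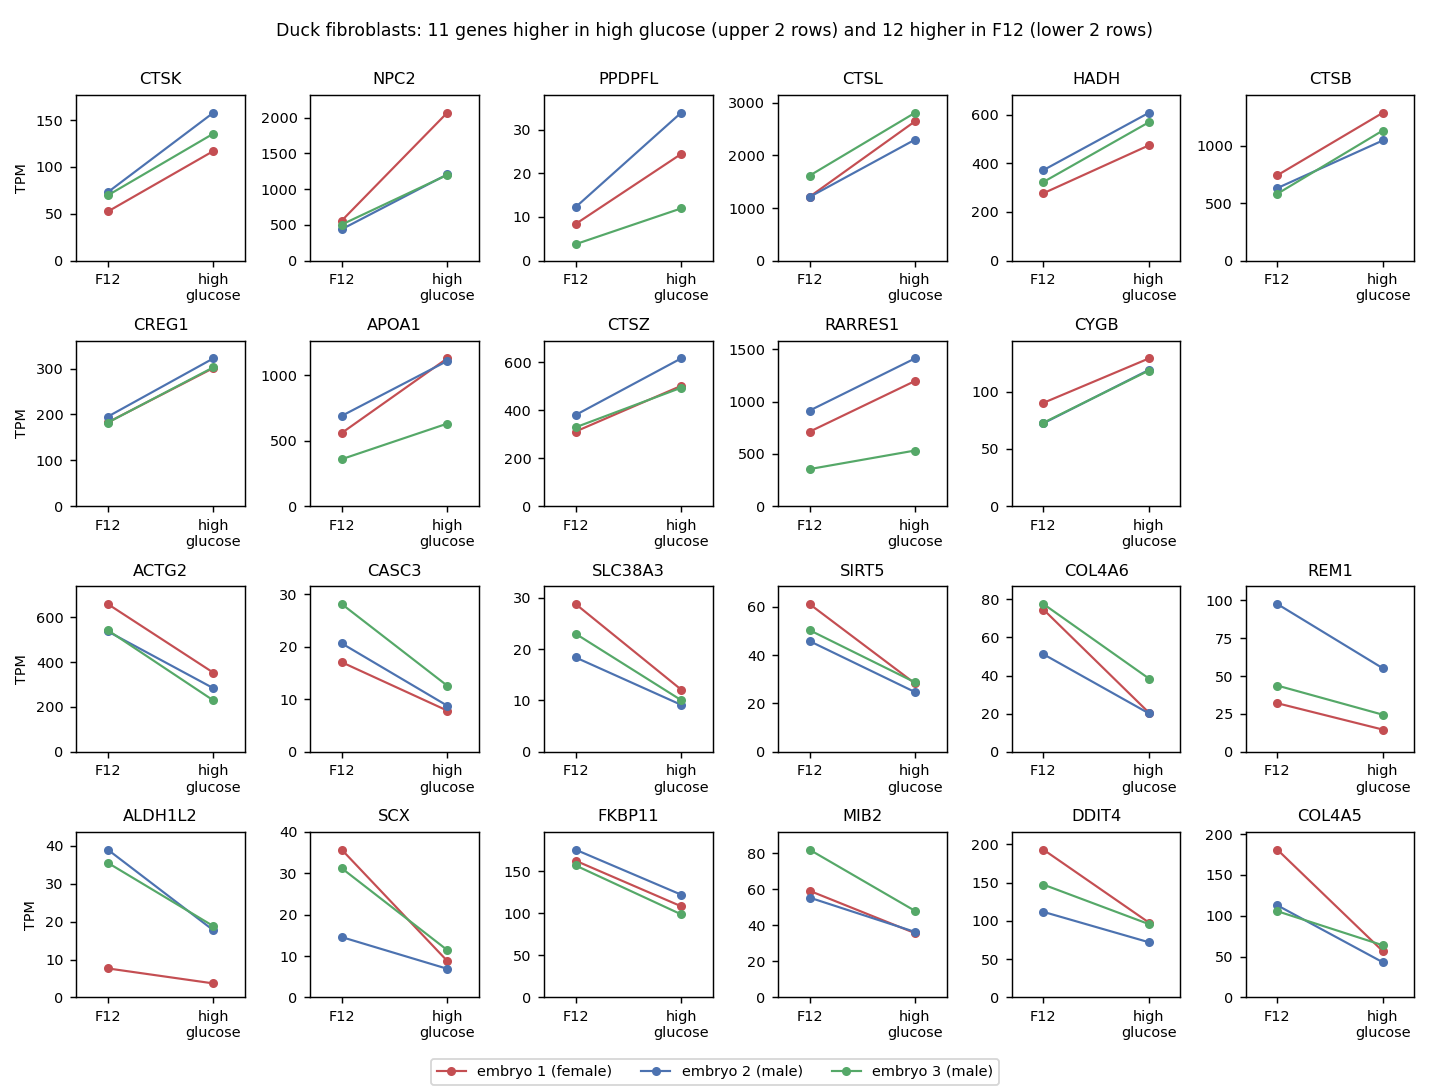
Each panel gives the TPM of 1 peak of a duck gene in F12 and in high glucose, with a line joining the 2 cultures of an embryo. Drawn are 11 genes of smallest p higher in high glucose (upper 2 rows) and the 12 higher in F12 (lower 2 rows). The vertical axes start at 0, and all 3 lines run the same way in every panel, which the choice of genes requires. NPC2 goes from 439–559 to 1198–2068 TPM and ACTG2 from 537–659 to 229.6–353 TPM.

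Of the genes higher in F12, several belong to smooth muscle. ACTG2, smooth muscle γ-actin, was at 659, 537 and 542 TPM in F12 and at 353, 284 and 229.6 TPM in high glucose (log2 difference -1.02 ± 0.10, adjusted p = 0.104). MYH11, smooth muscle myosin heavy chain, was at 47.0, 20.4 and 17.2 TPM against 27.7, 6.94 and 6.34 TPM (-1.16 ± 0.18, adjusted p = 0.177). TAGLN, transgelin, was at 4186, 3283 and 3992 TPM against 3055, 2531 and 3461 TPM (-0.34 ± 0.09, adjusted p = 0.392). ACTG2 did not overlap between the media, MYH11 did because embryo 1 was high in each medium, and TAGLN did because embryo 3 in high glucose lay above embryo 2 in F12. ACTA2, smooth muscle α-actin, was at 1502, 1619 and 1684 TPM in F12 and at 1271, 1553 and 1662 TPM in high glucose (-0.11 ± 0.09), much of that in embryo 1. Over the 7 smooth muscle markers with a peak, the summed level was 2717 to 3036 TPM in F12 and 2085 to 2682 TPM in high glucose. Of these 7 markers, 4 were lower in all 3 embryos (21.9% of all genes) and none higher (11.8%). Of the 32 measured genes of the wider list of contractile and TGF-β, SRF and YAP target genes, 14 were lower in all 3 embryos (21.9% of all genes) and 3 higher (11.8%), with a median of -0.12. In TMM scaling 13 were lower (16.8% of all genes) and 5 higher (17%), and in embryos 2 and 3 alone 16 were lower (26.1%) and 7 higher (32.6%). ACTG2, MYH11 and TGFBI (-0.65 ± 0.11) were its members at least 1.5-fold lower on the mean.

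COL4A5 and COL4A6, which encode α-chains of basement membrane collagen IV, are neighbours on opposite strands. The COL4A6 peak lies at NC_051781.1:3445413-3445683 on the minus strand and the COL4A5 peak at NC_051781.1:3445851-3446045 on the plus strand, 167 bases apart, so that the genes run away from a shared start region. COL4A6 was at 74.6, 51.2 and 77.5 TPM in F12 and at 20.6, 20.2 and 38.4 TPM in high glucose (log2 difference -1.37 ± 0.17, adjusted p = 0.141). COL4A5 was at 181, 113 and 106 TPM against 56.7, 43.1 and 63.9 TPM (-1.25 ± 0.19, adjusted p = 0.177). Neither gene overlapped between the media. The other measured collagen IV pair differed less: COL4A1 had a log2 difference of -0.28 ± 0.18 and COL4A2 of -0.17 ± 0.15, each lower in high glucose in 2 of 3 embryos. The list of collagens and matrix genes does not hold COL4A5 and COL4A6 and was not on one side. Of its 48 genes 8 were higher (11.8% of all genes) and 13 lower (21.9%) in all 3 embryos, with a median of -0.06. In TMM scaling 12 were higher (17% of all genes) and 13 lower (16.8%). COL6A3, a chain of collagen VI, was at 500.3, 603 and 742 TPM in F12 and at 300.03, 450.3 and 558 TPM in high glucose (-0.52 ± 0.10), whereas LTBP2, which binds microfibrils, was at 4.33, 3.87 and 2.11 TPM against 21.98, 9.44 and 5.88 TPM (1.45 ± 0.24), a low gene that reached an adjusted p of 0.0401 without embryo 1 and had up to 0.9998 under the other settings, reached without the pairing by embryo.

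A further 4 of the named genes higher in F12 were SLC38A3, SIRT5, ALDH1L2 and DDIT4. SLC38A3, a glutamine transporter, was at 28.8, 18.4 and 22.99 TPM in F12 and at 12.1, 9.16 and 10.1 TPM in high glucose (log2 difference -1.08 ± 0.13, adjusted p = 0.134). SIRT5, which removes succinyl groups from mitochondrial proteins, was at 61.1, 45.8 and 50.3 TPM against 28.3, 24.7 and 28.7 TPM (-0.91 ± 0.12, adjusted p = 0.141). Neither overlapped between the media. ALDH1L2, a mitochondrial folate enzyme, was at 7.67, 39.001 and 35.5 TPM against 3.71, 17.8 and 18.8 TPM (-0.95 ± 0.13, adjusted p = 0.177), and here embryo 1 was far below the others in each medium. DDIT4, an inhibitor of the growth kinase mTORC1, was at 193, 112 and 147 TPM against 97.8, 72.1 and 95.7 TPM (-0.74 ± 0.11, adjusted p = 0.177), again without overlap.

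The other 5 named genes of this side were lower in high glucose in every embryo. SCX, the tendon transcription factor scleraxis, was at 35.7, 14.6 and 31.2 TPM in F12 and at 8.85, 6.94 and 11.5 TPM in high glucose (log2 difference -1.41 ± 0.20). REM1, a small GTPase, was at 32.1, 97.6 and 43.8 TPM against 14.7, 55.2 and 24.5 TPM (-0.90 ± 0.12). FKBP11, a prolyl isomerase of the endoplasmic reticulum, was at 163, 176 and 157 TPM against 108, 122 and 98.9 TPM (-0.59 ± 0.08), and its second peak had a 0.610-fold level in high glucose. SCX and FKBP11 did not overlap between the media, whereas REM1 did because embryo 2 was high in each. MIB2, a ubiquitin ligase of Notch ligands, had a log2 difference of -0.69 ± 0.10 at the peak tested. CASC3, an exon junction protein read from a peak 3255 bases from its gene start, had one of -1.09 ± 0.13. Summed over all peaks of the gene the log2 differences were smaller, -0.41 for MIB2 and -0.56 for CASC3. The adjusted p of these 5 genes lay between 0.132 and 0.177.

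The lists that correspond to what F12 adds had medians closer to that of all genes than the lysosomal and glycolytic lists, though single members differed more. Of 23 measured genes of purine, pyrimidine and folate metabolism 10 were lower in high glucose in all 3 embryos (21.9% of all genes) and none higher (11.8%), with a median log2 difference of -0.11, but in TMM scaling 5 were lower (16.8% of all genes), a share near that of all genes. In embryos 2 and 3 alone 12 were lower in both (26.1% of all genes) and 4 higher in both (32.6%). IMPDH2, the rate-limiting enzyme of guanine nucleotide synthesis, was at 156, 164 and 149 TPM in F12 and at 116, 130.2 and 134 TPM in high glucose (-0.30 ± 0.09, adjusted p = 0.453). IMPDH2 did not overlap between the media, while CAD, which starts pyrimidine synthesis, had a log2 difference of -0.35 ± 0.13 and differed more between embryos than between media. In the list of serine, glycine and proline synthesis 6 of 13 genes were lower in all 3 embryos and 1 higher. With TMM scaling 6 were lower (16.8% of all genes) and 1 higher (17%). In embryos 2 and 3 alone 7 were lower in both (26.1% of all genes) and 2 higher in both (32.6%). The member with the lowest difference was ALDH1L2 (-0.95), given above. PHGDH, the entry enzyme of serine synthesis, was at 783, 525 and 555 TPM against 663, 455 and 435 TPM (-0.26 ± 0.08), and GLUL, glutamine synthetase, was the higher gene, at 36.8, 62.6 and 47.7 TPM against 54.7, 73.9 and 77.3 TPM (0.49 ± 0.12). Neither was called, with adjusted p of 0.444 and 0.374. Among 18 genes of the amino acid response and transport 3 were higher and 3 lower in all 3 embryos. In embryos 2 and 3 alone 11 were higher in both (32.6% of all genes) and 3 lower in both (26.1%). The list's median was -0.31 in embryo 1, 0.16 in embryo 2 and 0.08 in embryo 3. Its member with the lowest difference was DDIT4 (-0.74), given above. ATF4, the transcription factor of this response, was slightly higher (0.21 ± 0.07). The 11 polyamine genes held 3 higher and 3 lower, with ODC1, which makes putrescine, at -0.35 ± 0.13 and SAT1, which acetylates polyamines, at 0.27 ± 0.09. Of 18 genes for zinc, copper and iron handling 3 were higher and 6 lower.

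Of the lipid lists, the cholesterol list depended on the embryo, while the fatty acid list had a median above 0 in each embryo. For cholesterol synthesis and uptake 1 of 19 genes was higher in all 3 embryos (11.8% of all genes) and none lower (21.9%). The list's median was 0.23 in embryo 1, -0.20 in embryo 2 and 0.26 in embryo 3. HMGCS1, an early enzyme of the pathway, was at 143, 278 and 243 TPM in F12 and at 193, 172 and 304 TPM in high glucose, higher in embryos 1 and 3 and lower in embryo 2. Of 19 genes of fatty acid synthesis and desaturation 5 were higher (11.8% of all genes) and 2 lower (21.9%) in all 3 embryos, with a median of 0.12. The median was 0.08 in embryo 1, 0.12 in embryo 2 and 0.24 in embryo 3. In TMM scaling 6 were higher (17% of all genes) and 1 lower (16.8%). In embryos 2 and 3 alone 10 were higher in both (32.6% of all genes) and 3 lower in both (26.1%). FADS2, a fatty acid desaturase of linoleic acid, was at 127, 184 and 145 TPM in F12 and at 248, 231 and 256 TPM in high glucose (log2 difference 0.70 ± 0.14, adjusted p = 0.275). SCD, which desaturates stearic acid, was at 80.3, 101 and 116 TPM against 128, 133 and 139 TPM (0.44 ± 0.11, adjusted p = 0.372). For both desaturases all high-glucose levels lay above all F12 levels.

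Growth and housekeeping lists lay mostly below 0, and their counts of lower genes were smaller with TMM scaling. Cytosolic ribosomal protein genes were lower in high glucose in all 3 embryos in 30 of 66 genes (21.9% of all genes) and higher in 1 (11.8%). With TMM scaling the 30 became 6 (16.8% of all genes). Most of the difference was in embryo 3, with list medians of -0.03, -0.02 and -0.29 in embryos 1, 2 and 3. Translation factors were lower in 18 and higher in 1 of 48 (11 and 2 with TMM), proteasome subunits lower in 11 and higher in none of 30 (5 and 1), nuclear genes of the respiratory chain lower in 16 and higher in 2 of 47 (8 and 4), aminoacyl-tRNA synthetases lower in 8 and higher in none of 17 (6 and 2). Cell cycle genes were lower in 13 and higher in 3 of 29 (9 and 3), among them BUB1, a mitotic checkpoint kinase, at -0.49 ± 0.17, while the D-type cyclins CCND1 (0.30 ± 0.12) and CCND2 (0.34 ± 0.11) were higher. In embryos 2 and 3 alone 26.1% of all genes were lower in both and 32.6% higher in both. There 41 of 66 ribosomal protein genes were lower and 1 higher, and 21 and 6 of 48 translation factors. Of 30 proteasome subunits 14 were lower and 2 higher, and of 47 respiratory chain genes 19 and 5. Of 17 aminoacyl-tRNA synthetases 8 were lower and 2 higher, and of 29 cell cycle genes 19 and 3. No gene of these lists was called, and the smallest adjusted p among the named ones was 0.358, for NDUFV1 of complex I.

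The counts of the remaining lists follow, where 11.8% of all genes were higher and 21.9% lower in all 3 embryos. In all 3 embryos 5 of 18 hypoxia genes were higher and 7 lower, 5 and 3 of 18 for the pentose phosphate, hexosamine and UDP-sugar genes, 6 and 4 of 19 for the oxidative stress (NRF2) genes, 2 and 5 of 19 for immediate early factors and 15 and 29 of 100 for solute carriers. Endoplasmic reticulum chaperones had none higher and 3 of 21 lower, cytosolic heat shock chaperones 2 higher and 4 of 19 lower, and WNT, BMP, IGF and growth factor genes 5 each of 24. Thyroid, retinoid and steroid related genes had 3 each of 12, interferon and innate sensing genes none of 11 in either direction, and no histone gene had a peak. Within them, IGFBP4, a secreted binding protein of insulin-like growth factors, was at 93.8, 91.4 and 84.9 TPM in F12 and at 51.2, 64.6 and 54.95 TPM in high glucose (log2 difference -0.66 ± 0.11, adjusted p = 0.211). PDGFRA, a growth factor receptor of mesenchymal cells, was at 112, 172 and 153 TPM against 94.5, 121 and 117 TPM (-0.38 ± 0.09). IGFBP4 did not overlap between the media and PDGFRA did. EPAS1, a hypoxia-inducible factor read from a start site 38064 bases inside the annotated gene, was higher at 0.50 ± 0.10, and NFE2L2, the oxidative stress regulator, at 0.30 ± 0.09. With TMM scaling 9 of the 18 hypoxia genes were higher (17% of all genes) and 7 lower (16.8%) in all 3 embryos. In embryos 2 and 3 alone 11 were higher in both (32.6% of all genes) and 7 lower in both (26.1%).

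**Figure D4:**
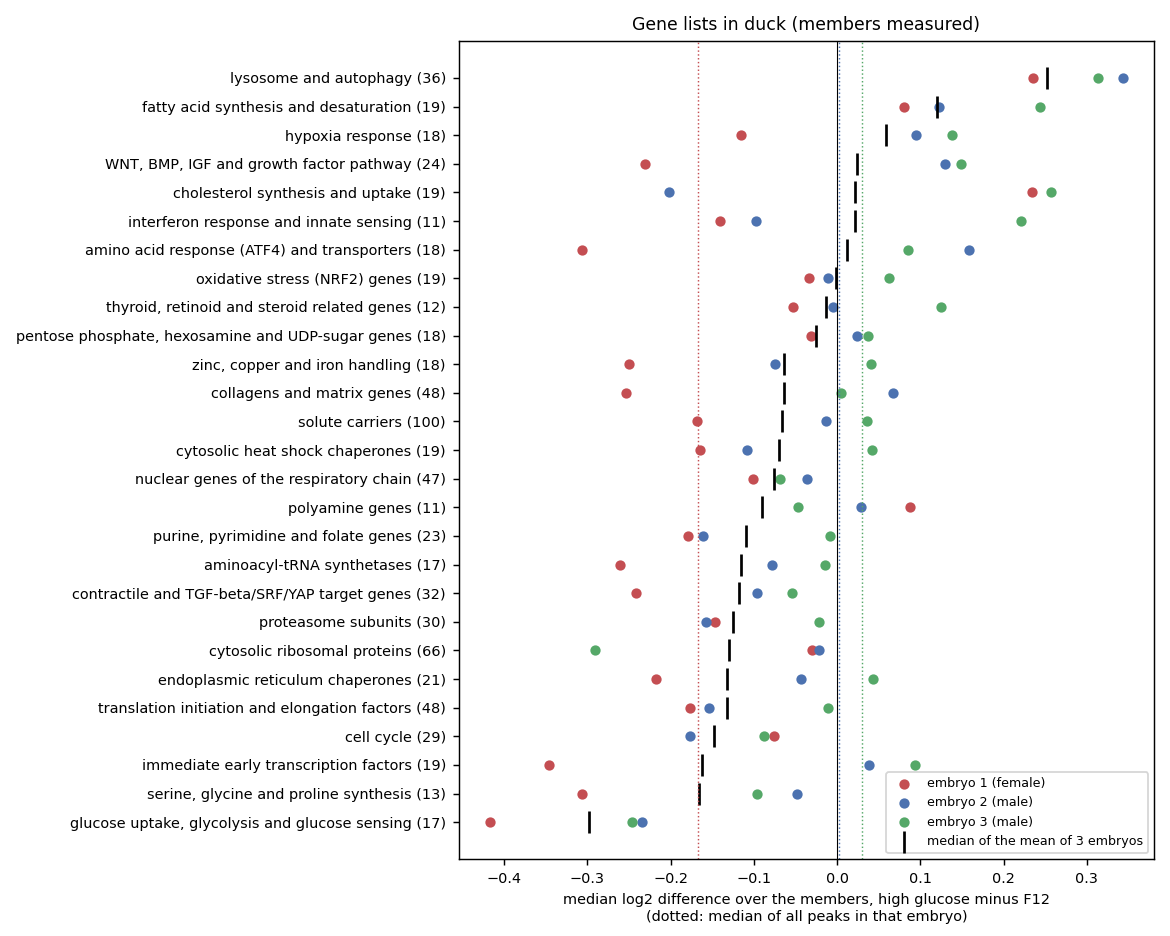
For each list of genes measured in duck, cell type markers left out (number of genes in parentheses), points give the median log2 difference, high glucose minus F12, in each embryo, and the black bar the median over genes of the mean of 3 embryos. Dotted lines are the medians of all peaks in each embryo (-0.17, 0.003 and 0.03). Of the lists drawn, lysosome and autophagy lies highest, with a median of 0.25, and glycolysis lowest, with -0.30.

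To see where duck differed from its relatives under the same 2 media, differences were compared over 4774 genes matched by symbol. The differences of the 3 duck embryos were set against those of 3 chicken and 3 quail embryos in a limma fit on per-embryo differences. Most of the chicken and quail embryos were female and most of the duck embryos male, and sex was not part of the fit. The fit gave each gene 1 estimate of spread over the 3 species, so that the spread of the quail embryos also enters the contrast with chicken. Against chicken no gene was called (smallest adjusted p 0.922), and 213 genes (4.46%) had an unadjusted p under 0.05. Against quail 39 genes were called (0.817%), 34 of them with a lower difference in duck and 5 with a higher one, and 695 genes (14.6%) had an unadjusted p under 0.05. Refitted without each duck embryo in turn, the count of 39 went to between 1 and 2, and without the pairing of the media by embryo it went to 1. In quail the blood and macrophage markers, 7 genes, summed to between 5.47 and 19.5 TPM in F12 and between 62.4 and 638 TPM in high glucose, whereas none had a peak in duck or chicken; their part in the contrast between duck and quail was not tested.

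The lysosomal direction of duck was seen in the other species too. Of 26 matched lysosome and autophagy genes 16 were higher in high glucose in all 3 duck embryos (10.8% of all matched genes), 20 in all 3 chicken embryos (23.9%) and 22 in all 3 quail embryos (23.6%), and none was lower in all 3 embryos of any species. The median log2 differences were 0.21 in duck, 0.44 in chicken and 0.70 in quail. Quail alone of the 3 species had peaks of blood and macrophage markers, and their summed level was higher in its high-glucose libraries. The part of these cells in the lysosomal values of quail was not tested. CTSB had a log2 difference of 0.83 in duck, 0.83 in chicken and 1.76 in quail, the difference between duck and quail not being called (adjusted p = 0.179). CTSC (0.44 in duck, 3.35 in quail), CTSA (0.19, 1.90) and SQSTM1 (0.40, 1.62) were the 3 list members whose difference was smaller in duck than in quail past the threshold, with adjusted p of 0.030, 0.033 and 0.030. Over all matched genes 39 (0.817%) were called against quail, and most of those calls were lost when a duck embryo was left out.

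The glycolytic genes were lower in high glucose in duck and quail by their medians and close to 0 in chicken, and none of them was called between species. All 15 matched glycolytic genes were lower in high glucose in all 3 duck embryos (22.5% of all matched genes), against 2 in chicken (11.5%) and 8 in quail (14.2%), with medians of -0.30, -0.01 and -0.55. PGK1 had a log2 difference of -0.50 in duck, 0.07 in chicken and -0.85 in quail. The difference between duck and chicken for PGK1 (-0.57) had an adjusted p of 0.982. APOA1 and HADH, named here for their small p in duck, had log2 differences near 0 in chicken (0.17 and 0.04) and quail (-0.06 and 0.08). Their adjusted p (limma) was 0.957 and 0.922 against chicken and 0.053 and 0.091 against quail. Both were chosen by the same duck differences, which favours a gap to the other species, so no duck trait can be read from them. ACTG2 was lower in all 3 duck embryos (mean -1.02) and in 2 of 3 embryos of each other species: the chicken differences ran from -1.91 to 0.23, and those of quail were -0.74, -0.46 and 2.32, the last of them embryo 3.

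**Figure D5:**
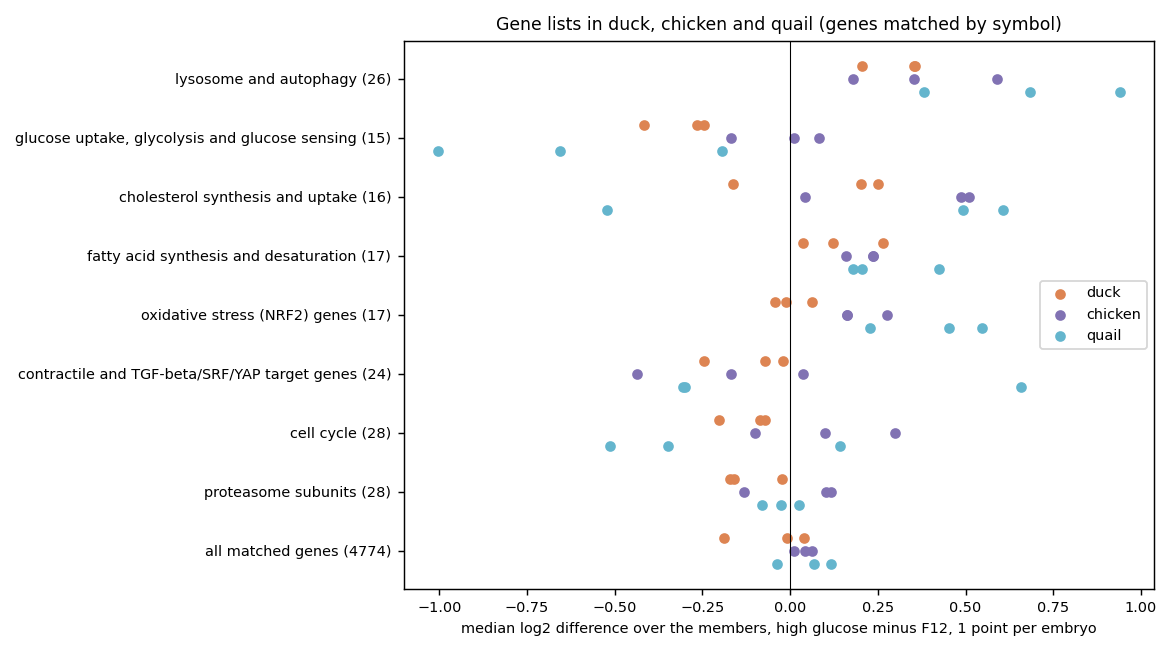
Each point is the median log2 difference, high glucose minus F12, over the genes of a list in 1 embryo of duck, chicken or quail, for genes matched by symbol in all 3 species (number in parentheses). For lysosome and autophagy all 9 embryos lie above 0. For glucose uptake and glycolysis all duck and quail embryos lie below 0, and the chicken embryos lie on each side of it.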

How the data were processed

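nAnTi-CAGE libraries were made from total RNA of passage 5 fibroblasts. Per the study's methods, reads were trimmed, stripped of rRNA and mapped by 2 aligners in turn, HISAT2 2.1.0 taking what BWA 0.7.10-r789 had left (duck: assembly ZJU1.0; the submitters' processing notes list galGal6), then joined into peaks reaching 10 TPM in at least 1 sample, assigned to genes with ChIPseeker 1.32.0. The deposited duck values are RPM (written TPM, tags of 1000000 tags) per peak, normalized by the authors. Within a library they are multiples of 1 smallest step, and 100% came out as whole tags within 0.05 tag, so that the depth of each library was read from that step. For RNA-seq, the authors gave counts per gene and FPKM for 1 female and 1 male library, both in high glucose, and these were used for levels only.

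Values were log2(TPM + 1). High glucose minus F12 was fitted with limma 3.58.1 (R 4.3.3), with embryo as a block, a mean-variance trend and Benjamini-Hochberg adjustment over 8619 peaks, two-sided. Differences are on the log2(TPM + 1) scale, which understates those of low peaks. Embryo numbers and sexes are the same in both media in the labels, and same-embryo libraries deviated together (correlations 0.75, 0.77 and 0.73, against at most -0.11 between embryos). Deviations were taken from the mean of each medium. Given positive values within embryos, this makes those between embryos negative, so the latter are no separate evidence for the pairing. The p-values and the SE printed after ± come from the spread between these 3 embryos, moderated by limma. Moderation draws the spread of each peak towards a trend over all peaks, so they are not the plain SE of 3 differences. TMM factors (0.886 to 1.04) came from edgeR 4.0.16. Species were compared on TPM summed per gene symbol and normalized separately per species. Named are the 12 symbols of smallest p in each direction (mean of at least 10 TPM, same sign in all 3 embryos), and of each of 28 gene lists and 10 marker lists the 2 of smallest p and the 2 of highest level; others named were chosen after their values were seen. A few genes that met these rules are not reported here. A gene with several peaks is represented in the lists by its strongest. Statements that a gene did not overlap between the media describe that gene only, since the share of all genes without overlap is not given. The samples, genes and lists were chosen with earlier results of these data known. The fit was tried on simulated data with a fixed spread and without medium responses that differed between embryos. That trial does not show how the fit behaves on these 3 pairs. No per-sample column was left unmapped in the tables used. Figures were drawn with matplotlib 3.10.9.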

Additional observations from a re-analysis of the deposited data

Results flagged for a closer look

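The difference between the media, high glucose minus F12, was not the same size in duck and quail for 39 genes (limma on per-embryo differences, adjusted p under 0.05 over 4774 genes, 3 embryos per species). In 34 of them the log2 difference was lower in duck than in quail. Given as the duck value minus the quail value, on the log2 scale, wide gaps were those of COL4A1 (-3.17), CTSC (-2.91), FBLN5 (-2.72) and ALCAM (-2.33). A gap alone does not show which species moved. COL4A1, a basement membrane collagen chain, stood at -0.28 in duck, 0.68 in chicken and 2.90 in quail. In the same order CTSC stood at 0.44, 0.76 and 3.35, FBLN5 at -0.55, -0.40 and 2.17 and ALCAM at -0.50, 0.46 and 1.83. Gaps of middle size were found for GPX3 (-1.94), DHRS7 (-1.90), TSC22D1 (-1.78), DACT1 (-1.73), MXRA8 (-1.73), GNPTAB (-1.72), TMTC2 (-1.71), CTSA (-1.71), PDGFD (-1.67), HMOX1 (-1.64), SRC (-1.60), TNFRSF6B (-1.59) and PKIG (-1.53). Among these, CTSA is a lysosomal protease, and GNPTAB, which the lysosome list does not hold, tags enzymes for the lysosome. Smaller gaps were those of ITGA6 (-1.50), HSPB8 (-1.48), PODXL2 (-1.46), MRAS (-1.39), TGM2 (-1.38), SLC38A2 (-1.35), MPP1 (-1.33), SQSTM1 (-1.22), IRF2 (-1.20), ZNF521 (-1.10), SGPL1 (-1.07), B3GNT9 (-1.06), ARAP2 (-0.96), EPHB2 (-0.95), ATP6AP1 (-0.93) and SPTBN1 (-0.86). SQSTM1 is an autophagy receptor and ATP6AP1 a subunit of the lysosomal proton pump. Whether genes of the lysosome are more frequent among the 39 than among all matched genes was not tested. In 5 genes the value was higher in duck than in quail, namely RCAN1 (2.01), SUOX (1.54), CTHRC1 (1.01), PAPSS2 (1.00) and NEDD9 (0.82). In duck, chicken and quail in turn, RCAN1 stood at 0.0001, -0.19 and -2.01 and SUOX at 0.03, -0.42 and -1.51. CTHRC1 stood at 0.30, -0.30 and -0.70, PAPSS2 at -0.03, 0.05 and -1.03 and NEDD9 at -0.11, -0.37 and -0.93. In the quail libraries the blood and macrophage markers summed to between 5.47 and 19.5 TPM in F12 and between 62.4 and 638 TPM in high glucose, and the part of these cells in the 39 differences was not tested. When a duck embryo was left out, between 1 and 2 genes were called.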

How the results depend on the processing

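The count of called peaks (1, lower in high glucose) was small enough that most settings moved it. It was 5 at an adjusted p under 0.1 (4 higher, 1 lower in high glucose), 2 with TMM scaling and 2 with a pseudocount of 5 (1 higher, 1 lower each), and 0 without the mean-variance trend. Leaving out 1 embryo gave 0 to 10 called peaks, 0 to 6 of them higher and 0 to 4 lower. A pseudocount of 0.1, a minimum mean of 10 TPM, summing peaks per gene, thinning to the shallowest library and, chosen after seeing the data, leaving out 2 sequences and rescaling kept 1 called peak.

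Without the replicate block for the embryo, the duck fit called 2 peaks (1 higher, 1 lower), its peaks with an unadjusted p under 0.05 went from 828 to 198, and the count of genes differing between duck and quail went from 39 to 1. Without the block the called duck peak had an adjusted p of 0.00861, and no gene was called between duck and chicken.

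The number of peaks with a mean difference of at least 1.5-fold and the same sign in all 3 embryos was 95 higher, 55 lower and 150 in total. At 2-fold it was 21, 10 and 31, and with a pseudocount of 5 the lower ones were 30. Leaving out 1 embryo, a setting added after seeing the data, gave 101 to 158 higher, 54 to 184 lower and 155 to 317 in total, since agreement of 2 embryos is asked for in place of 3. The genes differing between duck and quail numbered 1 to 2 without a duck embryo, 28 with TMM scaling, 40 with a minimum mean of 10 TPM or a pseudocount of 5, and 43 with a pseudocount of 0.1. No gene was called between duck and chicken under any setting run.

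No value reversed past a threshold. Among the named genes 47 values that were not called changed sign under some setting, 3 gained a call and 3 lost one, and 6 list medians moved. Over the genes called between duck and quail, calls were lost 167 times across the settings. edgeR and DESeq2 fits on tags recovered from TPM were planned and were not run. Restricting the test to promoter peaks changed nothing, because all 8619 peaks carry that class. The 2 residual degrees of freedom limit what could be called, and low peaks rest on few tags, 1 tag being worth 0.0901 to 0.143 TPM.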
